A study of Mus musculus with 9 samples.

Results

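The 4 mature miRNAs of the imprinted Igf2-H19 region, miR-483-5p and miR-483-3p from the Igf2 gene and miR-675-5p and miR-675-3p from H19, were followed across small RNA libraries of whole mouse kidney at embryonic day 16.5. They were chosen by name (mmu-miR-483-3p, mmu-miR-483-5p, mmu-miR-675-3p and mmu-miR-675-5p) out of 1607 known mouse miRNA names with reads, and all 4 were counted in every library and passed the filter on low counts that left 955 miRNAs for testing. There were 3 libraries of DROSHA knockout kidneys, 3 of kidneys with a DROSHA-E1147K transgene and 3 of wild-type control kidneys. DROSHA is the nuclear RNase III that releases hairpin precursors from long primary transcripts, and E1147K is a substitution found in human Wilms tumor, a childhood kidney cancer. Drosha mRNA is not seen by this assay, so the deletion and the transgene were not checked. The promoter or Cre line behind either mouse model, the share of kidney cells that carry the change and the number of animals per library are not given in the sources used here. The p-values therefore reflect only how far libraries of a group differ, a spread that could be technical.

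Igf2 and H19 are neighbouring genes that share enhancers and are expressed from opposite parental alleles, Igf2 from the paternal and H19 from the maternal one. Igf2 encodes a fetal growth factor, and H19 is a long non-coding RNA of fetal tissues that limits growth. Gain of IGF2 expression through loss of this imprinting is frequent in human Wilms tumor. A hairpin is cut by DROSHA and then by DICER into a duplex of a 5p and a 3p arm, and usually 1 arm is kept in the Argonaute protein while the other is degraded. In human tumors miR-483-3p is raised together with IGF2 and represses the pro-apoptotic gene BBC3, and in mouse placenta miR-675 represses the growth factor receptor gene Igf1r.

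The mature sequences below (RefSeq, GRCm38.p6, the assembly that mm10 stands for) are shown because the results turn on which arm of a hairpin was counted. Capitals mark the seed, bases 2 to 8, which directs target recognition.
mmu-miR-483-5p: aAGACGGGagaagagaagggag
mmu-miR-483-3p: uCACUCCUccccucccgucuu
mmu-miR-675-5p: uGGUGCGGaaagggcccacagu
mmu-miR-675-3p: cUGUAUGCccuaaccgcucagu
The 4 seeds differ from each other, and none is shared with another mature miRNA of the same RefSeq table. The arms of miR-483 are of opposite composition. miR-483-5p has 21 purines in 22 bases, and miR-483-3p has 19 pyrimidines in 21 bases. The arms of miR-675 are mixed, with 14 purines in miR-675-5p and 8 in miR-675-3p, each of 22 bases.

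The 2 precursors, in which capitals mark the 5p arm and then the 3p arm, show where the arms lie on either side of the loop.
Mir483: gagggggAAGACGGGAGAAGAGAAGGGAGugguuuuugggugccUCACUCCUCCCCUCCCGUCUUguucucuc
Mir675: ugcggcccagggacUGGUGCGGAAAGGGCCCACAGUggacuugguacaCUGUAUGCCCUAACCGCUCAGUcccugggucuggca
Mir483 lies on the minus strand of chr7:142654924-142654996 and falls in the intron at 142654449-142655653 of 7 of the 9 annotated Igf2 transcripts (GENCODE vM21). Mir675 lies on the same strand at chr7:142577064-142577147 and falls in an exon of 3 of the 7 annotated H19 transcripts and in an intron of 1. The hairpins are 77776 bp apart. The Igf2 and H19 transcripts themselves, and the parental allele of any read, are not measured by this assay.

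Known miRNAs took 24350500 to 34896599 reads in each library. Levels are given in CPM, reads per 1000000 miRNA reads after TMM scaling. The members had between 1762 reads (miR-483-3p in transgene 1) and 17020 reads (miR-675-3p in transgene 2). The half-width of the 95% Poisson interval of the lowest count is 4.70% of it, which covers counting error only. The reads carry no molecular identifiers. Kidney markers were present, since the 5 tubule miRNAs summed to at least 6137 CPM and the 4 Hox cluster miRNAs of the kidney region to at least 57463 CPM in every library.

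Whether different sequences yield equal reads per molecule was not tested, so ranks and arm ratios here are those of reads. miR-675-3p was the most abundant of the 4 in every group. It averaged 550 ± 78.1 CPM in knockout, 538 ± 15.2 CPM in transgene and 517 ± 125 CPM in control libraries (SD, n = 3 each), and by its mean over all libraries it stood 138th of the 955 miRNAs tested. miR-483-5p came next, with 225 ± 165 CPM in knockout, 325 ± 57.9 CPM in transgene and 358 ± 48.4 CPM in control libraries. These top 2 levels did not overlap within the knockout or the transgene libraries, while in controls they did, since control 3 had 405 CPM of miR-675-3p and 414 CPM of miR-483-5p. The third place was held by miR-483-3p and the lowest by miR-675-5p in each group, and the libraries of this last pair overlapped in all 3 groups. Between miR-483-5p and miR-483-3p the libraries were separate in transgene and in control kidneys and overlapped in knockout kidneys, where knockout 1 had more of the 3p arm.

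**Figure D1:**
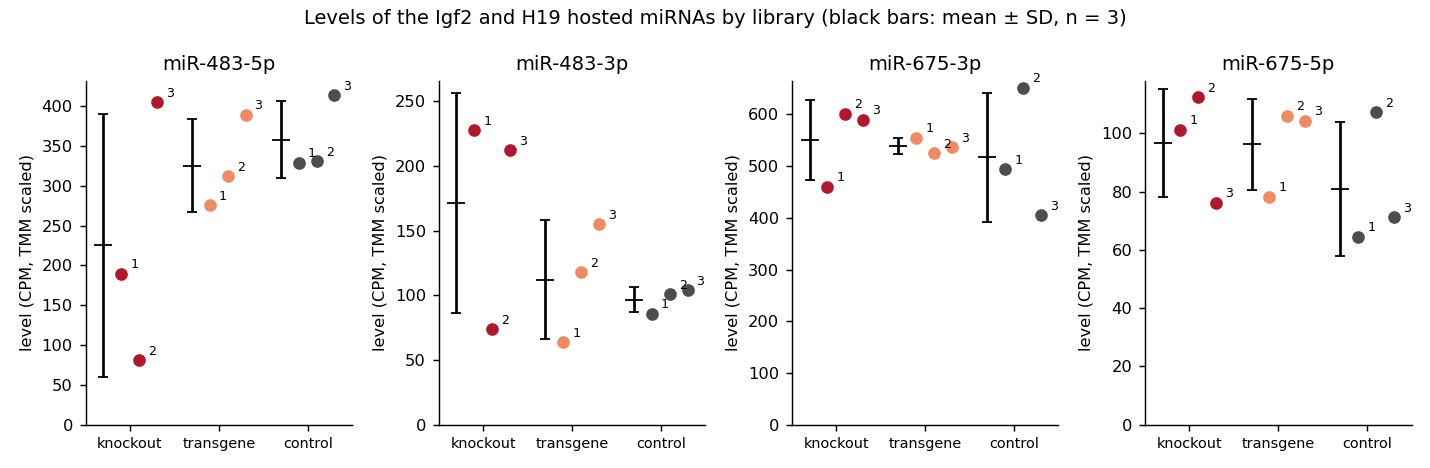
Level of each miRNA (y axes, CPM after TMM scaling, from 0) in the 3 knockout, 3 transgene and 3 control libraries, with points numbered by replicate and black bars for the mean ± SD. The knockout libraries of miR-483-5p run from 81.2 to 405 CPM, while miR-675-3p stays between 405 and 651 CPM in all libraries.

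From the Igf2 intron, miR-483-5p was the arm that varied most in the knockout. In knockout libraries 1 to 3 it was at 190, 81.2 and 405 CPM, in transgene libraries at 275, 312 and 389 CPM, and in control libraries at 329, 331 and 414 CPM. Knockouts 1 and 2 lay below all 3 controls and knockout 3 lay among them, so the groups overlapped. The edgeR log2 fold change, knockout over control, was -0.67 (SE 0.49, 95% interval -1.78 to 0.45, adjusted p = 0.434), and it was -0.31 without knockout 2 and -1.32 without knockout 3. For transgene over control it was -0.14 (SE 0.49, 95% interval -1.25 to 0.97, adjusted p = 0.953), a direction that turned to 0.095 with scaling to total miRNA counts and to 0.034 with scaling to all counted reads.

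The 3p arm was above the controls in 2 of the 3 knockout libraries. miR-483-3p was at 228, 73.8 and 212 CPM in knockouts 1 to 3, at 63.8, 118 and 155 CPM in transgene libraries and at 85.8, 101 and 104 CPM in controls. Knockouts 1 and 3 were above every transgene and control library and knockout 2 was below every control, so these groups overlapped too. The log2 fold change of knockout over control was 0.82 (SE 0.46, 95% interval -0.22 to 1.86, edgeR adjusted p = 0.311), with 0.57 without knockout 1 and 1.15 without knockout 2. Transgene over control gave 0.21 (SE 0.46, adjusted p = 0.907), and -0.024 without transgene 3.

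The H19-derived arms had close means in the 3 groups. miR-675-3p was at 460, 601 and 589 CPM in knockout, 554, 524 and 536 CPM in transgene and 494, 651 and 405 CPM in control libraries, so that the lowest and the highest value of all 9 libraries both came from controls. Its log2 fold change was 0.090 for knockout over control (SE 0.23, 95% interval -0.44 to 0.62, edgeR adjusted p = 0.834) and 0.058 for transgene over control (SE 0.23, 95% interval -0.47 to 0.58, edgeR adjusted p = 0.959). Both intervals exclude a doubling or a halving of the level in CPM, which is relative to the other miRNAs. A change shared by all miRNAs would not be seen in CPM. The direction is not fixed by the data, since it became -0.068 for the knockout and -0.11 for the transgene without control 3.

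miR-675-5p, the rarer arm, was at 101, 112 and 76.2 CPM in knockout, 78.3, 106 and 104 CPM in transgene and 64.4, 107 and 71.2 CPM in control libraries. All 3 groups overlapped. The log2 fold change was 0.25 for knockout over control (SE 0.29, 95% interval -0.39 to 0.90, edgeR adjusted p = 0.622) and 0.25 for transgene over control (SE 0.29, 95% interval -0.40 to 0.90, edgeR adjusted p = 0.780).

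By edgeR's quasi-likelihood test 0 of the 4 members passed an adjusted p of 0.05 in any of the 3 comparisons, 0 had an unadjusted p under 0.05, and DESeq2 also called 0. Over the miRNAs to which DESeq2 gave an adjusted p, it called 11.8% for knockout over control (104 of 884), 0.604% for transgene over control (4 of 662) and 0.319% for knockout over transgene (3 of 939). Over all 955 miRNAs edgeR called 0% for knockout over control, 0% for transgene over control and 0.105% for knockout over transgene, and the unadjusted p was under 0.05 for 25.7%, 8.80% and 7.02% of them. Groups did not overlap for 0 of the 4 members in each comparison, against 28.5% of all miRNAs for knockout and control, 24.0% for transgene and control and 10.4% for knockout and transgene. The median log2 fold change of the 4 was 0.17 for knockout over control, 0.14 for transgene over control and 0.019 for knockout over transgene, beside medians of -0.025, -0.039 and 0.049 over all miRNAs. Knockout over transgene gave 0.61 (SE 0.46) for miR-483-3p, -0.53 (SE 0.49) for miR-483-5p, 0.032 (SE 0.23) for miR-675-3p and 0.0056 (SE 0.28) for miR-675-5p. With 1 library left out, the value for miR-483-3p lay between 0.28 without knockout 1 and 0.98 without knockout 2, and that for miR-483-5p between -1.25 without knockout 3 and -0.13 without knockout 2. The knockout and transgene comparisons share the 3 control libraries.

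**Figure D2:**
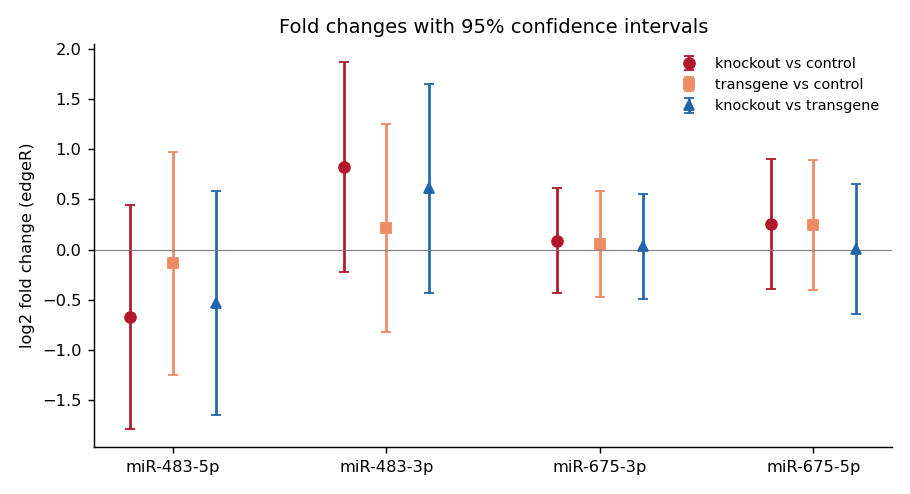
edgeR log2 fold change (y axis) of each miRNA (x axis) for knockout over control, transgene over control and knockout over transgene, with 95% confidence intervals. Every interval includes 0, and those of miR-483 are wider than those of miR-675.

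Within a library the arms of 1 hairpin can be compared without any scaling, and here the knockout stood apart for miR-483. In knockout libraries 1 to 3, 45.4%, 52.4% and 65.6% of the miR-483 reads came from the 5p arm. The share was 81.2%, 72.5% and 71.5% in transgene libraries and 79.3%, 76.6% and 79.9% in control libraries, and the widest of the exact binomial 95% intervals, in knockout 2 with 3809 reads, ran from 50.8% to 54.0%. Every knockout library was below every transgene and every control library. The purine-rich 5p arm thus outnumbered the pyrimidine-rich 3p arm by 3.70-fold in controls and by 3.16-fold with the transgene, and by 1.28-fold in the knockout (means of the ratios of 5p to 3p reads), with the 3p arm ahead in knockout 1 alone.

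On the log2 scale the miR-483 arm balance, 5p over 3p, was -0.26, 0.14 and 0.93 in knockouts, 2.11, 1.40 and 1.33 in transgene libraries and 1.94, 1.71 and 1.99 in controls. The knockout mean was 1.61 log2 units lower than the control mean (0.27 ± 0.61 against 1.88 ± 0.15, SD, n = 3 each), with an exact two-sided permutation p of 0.1, the smallest that 3 against 3 libraries allow. The knockout mean was 1.34 log2 units lower than the transgene mean of 1.61 ± 0.43 (SD, n = 3), again with an exact permutation p of 0.1. Transgene and control libraries overlapped, with a difference of -0.27 (exact permutation p = 0.4). After Benjamini-Hochberg adjustment over the 9 balance tests made here, these exact permutation p-values were 0.45, 0.45 and 0.9. Since knockout and control libraries did not overlap, leaving out any 1 library could alter only the size of their difference. The knockout was then below the controls by 1.35 without knockout 1 to 1.95 without knockout 3 in log2 units.

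**Figure D3:**
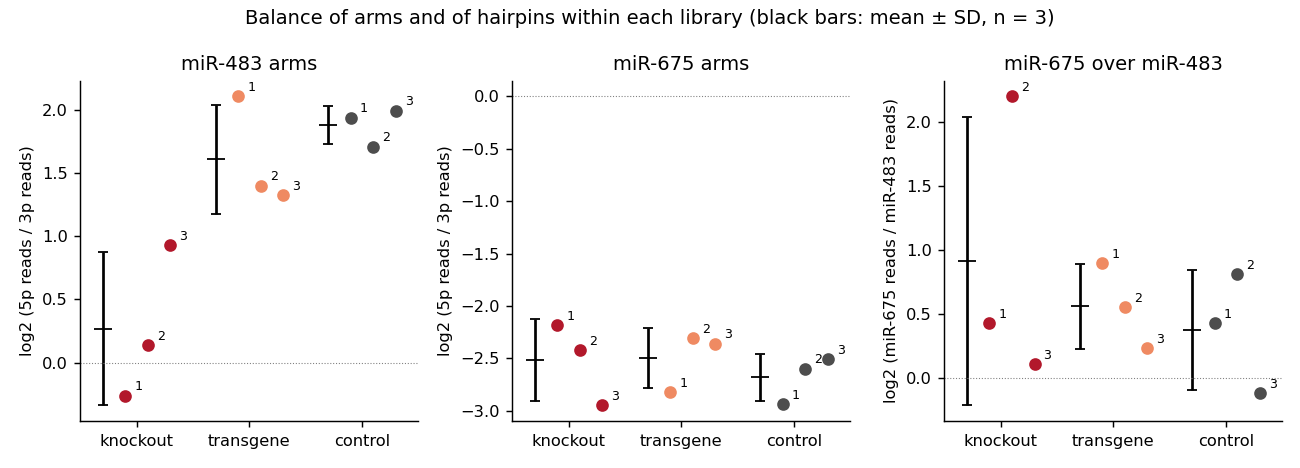
Log2 ratio of 5p to 3p reads for miR-483 and for miR-675, and log2 ratio of miR-675 to miR-483 reads (y axes), in each knockout, transgene and control library, with numbered replicates and black bars for the mean ± SD. The 3 knockout libraries of the miR-483 panel lie between -0.26 and 0.93, below all transgene and control libraries, which lie between 1.33 and 2.11.

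The same ratio was computed for all 289 hairpins with a mean of at least 10 reads on each arm and fitted with limma, an analysis added after the arm counts were seen. For knockout against control the miR-483 shift of -1.61 (SE 0.34, 95% interval -2.39 to -0.83) had the smallest unadjusted p of the 289, 0.00117, and a limma adjusted p of 0.201, so it did not pass. limma called 0% of hairpins in that comparison, 6.92% had an unadjusted p under 0.05, and the groups did not overlap for 14.5% of them, 8.30% with the knockout lower. In size, 11 hairpins shifted more, 7 of them miR-466 or miR-669 hairpins, families of many near-identical copies, for which the assignment of reads is not stated. Of the 72 hairpins with at least 1000 reads on the rarer arm, a limit chosen after the values were seen, 1 shifted more, miR-199b. Its shift of 1.78, in the opposite direction, rested on knockout 1. Its log2 ratio was -2.47 in knockout 1, -7.43 and -7.10 in knockouts 2 and 3, and -7.51, -7.44 and -7.38 in controls. For knockout against transgene the miR-483 shift was -1.34 (SE 0.34, limma adjusted p = 0.352), where limma called 0.346% of hairpins and 12.1% did not overlap, 6.23% with the knockout lower. For transgene against control it was -0.27 (SE 0.34, limma adjusted p = 0.920), where limma called 0% and 11.1% did not overlap. The median shift over all hairpins, knockout minus control, was -0.11.

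**Figure D4:**
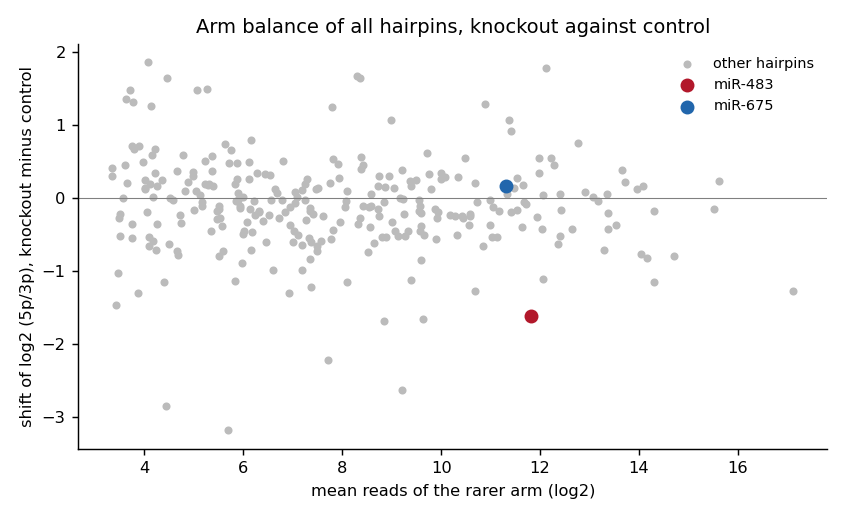
Shift of the log2 ratio of 5p to 3p reads, knockout minus control (y axis), against the mean reads of the rarer arm on a log2 scale (x axis) for 289 hairpins, with miR-483 and miR-675 marked. miR-483 lies at -1.61, below the other hairpins of like or higher abundance, and miR-675 lies at 0.16, within the bulk.

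For miR-675 the arm proportions of the 3 groups overlapped. Its 3p arm made up 82.0%, 84.3% and 88.5% of the hairpin's reads in knockouts, 87.6%, 83.2% and 83.7% in transgene libraries and 88.5%, 85.9% and 85.1% in controls. The log2 of 5p over 3p was 0.16 higher in knockout than in control libraries (-2.52 ± 0.39 against -2.68 ± 0.23, SD, n = 3 each, exact permutation p = 0.6). It was 0.19 higher with the transgene (-2.50 ± 0.28, SD, n = 3, exact permutation p = 0.5). limma gave an interval of -0.46 to 0.79 for the knockout difference and -0.44 to 0.81 for the transgene difference. Whether the knockout shift differs between the 2 hairpins was not tested.

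The balance between the hairpins, miR-675 over miR-483 with arms summed, compares products of the maternally and the paternally expressed gene. The ratio of reads was 1.35, 4.60 and 1.08 in knockouts, 1.86, 1.47 and 1.18 in transgene libraries and 1.35, 1.76 and 0.920 in controls. Knockout 2 stood above all other libraries, and the other 2 knockouts lay among the controls. In knockout 2 the miR-483 arms summed to 155 CPM, against 339 to 617 CPM in the 8 other libraries, while the miR-675 arms summed to 713 CPM, inside the control range of 476 to 758 CPM. On the log2 scale knockout exceeded control by 0.54 (0.91 ± 1.13 against 0.37 ± 0.47, SD, n = 3 each, exact permutation p = 0.7), and without knockout 2 the difference was -0.11. The transgene exceeded control by 0.19 (0.56 ± 0.33, SD, n = 3, exact permutation p = 0.6), and the difference was -0.060 without control 3. With miR-675-3p over miR-483-5p in place of the sums, the knockout difference was 1.06 (exact permutation p = 0.3). miR-483-5p is the more abundant arm of its hairpin in all libraries other than knockout 1.

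Over all 9 libraries the coefficient of variation was 46.7% for miR-483-3p and 35.9% for miR-483-5p, against 14.1% for miR-675-3p and 20.1% for miR-675-5p. Among the 465 miRNAs with a mean of at least 10 CPM the median was 32.4%, and 3.87% of them varied less than miR-675-3p. The highest level was 5.09 times the lowest for miR-483-5p and 1.61 times for miR-675-3p. Within controls alone the order was different, with a coefficient of variation of 24.1% for miR-675-3p and an SD of 9.69 CPM on a mean of 96.8 CPM for miR-483-3p.

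Although cut from 1 precursor, the miR-483 arms did not follow each other closely across libraries. The Pearson correlation of their log2 CPM over the 9 libraries was 0.28, and that of the miR-675 arms was 0.45. Across the 128 hairpins with both arms at a mean of 10 CPM or more the median was 0.53, with quartiles of 0.13 and 0.82, and 39 hairpins had a lower value than miR-483. All these values are descriptions over libraries that also differ in group.

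**Figure D5:**
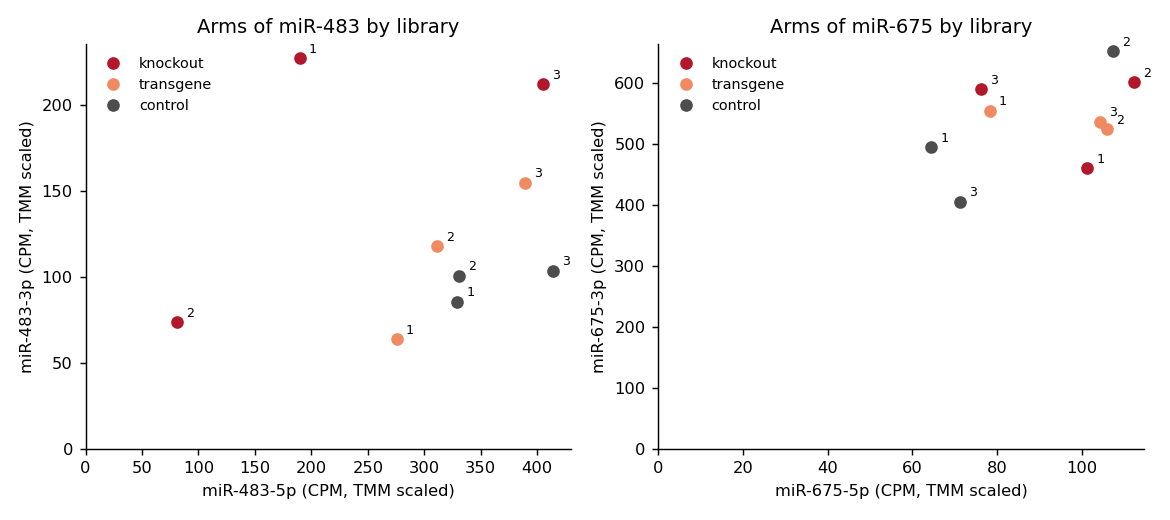
Level of the 3p arm (y axes) against the 5p arm (x axes), both in CPM after TMM scaling, for miR-483 and miR-675 in the 9 libraries, coloured by group and numbered by replicate. Knockouts 1 and 3 lie above the other libraries in the miR-483 panel and knockout 2 has the lowest miR-483-5p, while in the miR-675 panel the groups are mixed.

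The miRNAs most like miR-483-3p in pattern, by Pearson correlation of log2 CPM over 9 libraries among 464 others, were miR-326-3p (0.94), miR-193b-3p (0.93) and the mesenchymal miR-214-3p (0.92). miR-214-3p was at 2594, 1281 and 2458 CPM in knockout, 1134, 1975 and 2971 CPM in transgene and 1423, 1407 and 1668 CPM in control libraries. Most like miR-483-5p were miR-3099-3p (0.92), miR-423-5p (0.90) and miR-30c-5p of the epithelial miR-30 family (0.86). As the choice by correlation with miR-483-5p entails, knockout 2 was low for each of these 3, with 10.9 CPM of miR-3099-3p, 159 CPM of miR-423-5p and 421 CPM of miR-30c-5p. The leading matches were weaker for miR-675-3p, with miR-193a-5p (0.79), miR-1198-5p (0.79) and miR-466o-5p (0.75), and for miR-675-5p, with miR-652-5p (0.77), the erythroid miR-486a-5p (0.77) and miR-669a-5p (0.73). miR-486a-5p shares its mature sequence with miR-486b-5p, and miR-466o-5p and miR-669a-5p belong to multicopy families, so their counts are uncertain.

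Of 20 miRNAs from other imprinted loci of the mouse, edgeR called 0 higher and 0 lower in each of the 3 comparisons. Their median log2 fold change was 0.30 for knockout over control and 0.42 for transgene over control. The 10 from the Dlk1-Dio3 region, which are expressed from the maternal allele, were all positive in both comparisons. Their medians were 1.14 and 0.71, beside -0.025 and -0.039 over all miRNAs. The groups did not overlap for 5 of them in the knockout and 6 with the transgene, where 12.9% and 11.9% of all miRNAs were higher without overlap. The 10 miRNAs of this region were listed with earlier results of these data known, and both comparisons share the controls, so these counts are descriptions only. miR-411-5p of this region averaged 10617 ± 4948 CPM in knockout, 8193 ± 1273 CPM in transgene and 5861 ± 280 CPM in control libraries (SD, n = 3 each), and miR-379-5p averaged 6741 ± 3259, 5932 ± 1411 and 4645 ± 1408 CPM in the same groups. The 2 from Mest had medians of -0.15 and 0.019, the 4 from the Gnas and Nespas locus -0.15 and -0.24, and the 4 from the Sfmbt2 intron -0.62 and -0.32. Without overlap, 1 of the 4 from Sfmbt2 was lower in knockout than in control libraries, and 1 of the 4 from Gnas and Nespas was lower with the transgene. Over all miRNAs 28.5% did not overlap in either direction for knockout and control, and 24.0% for transgene and control. For knockout over transgene the Sfmbt2 median was -0.82. In that comparison 3 of its 4 were lower without overlap, where 10.4% of all miRNAs did not overlap in either direction. miR-466a-3p and miR-669c-5p of the Sfmbt2 list belong to multicopy families, so their read counts are uncertain. miR-335-5p of Mest was at 1343 ± 213 CPM in knockout, 1506 ± 39.1 CPM in transgene and 1417 ± 205 CPM in control libraries (SD, n = 3 each). miR-296-5p of the Gnas and Nespas locus was at 1076, 400 and 923 CPM in knockouts 1 to 3. It was at 359, 581 and 794 CPM in transgene and 734, 692 and 868 CPM in control libraries, with a knockout over control log2 fold change of 0.065.

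In whole kidney, fewer cells of a type and less RNA per cell cannot be told apart, and Igf2 and H19 are also active in fetal muscle and liver. The 6 muscle miRNAs summed to 2073, 458 and 10513 CPM in knockouts 1 to 3, against 468 to 1641 CPM in transgene and 221 to 1254 CPM in control libraries. The 2 arms of liver miR-122 summed to 374 to 6403 CPM in knockout, 712 to 19245 CPM in transgene and 796 to 12031 CPM in control libraries. Knockout 3, the library with most muscle miRNA, also had the highest miR-483 sum of the 9 libraries, 617 CPM, with 212 CPM of miR-483-3p against at most 104 CPM in controls, and its miR-675 arms summed to 666 CPM. Within the transgene and the control libraries the order ran the other way. Transgene 1 and control 1 had the most muscle miRNA of their groups and the lowest miR-483 sums, 339 and 415 CPM. The part of muscle RNA in these levels was not tested, and without knockout 3 the knockout over control log2 fold change was 0.72 for miR-483-3p. Transgene 2, the library with most miR-122, had 430 CPM over the miR-483 arms and 630 CPM over the miR-675 arms. The 3 erythroid miRNAs summed to 71627 to 112119 CPM in knockout, 27185 to 79966 CPM in transgene and 21363 to 52266 CPM in control libraries, and the tubule miRNAs to 6137 to 9799 CPM, 8721 to 9365 CPM and 11224 to 13236 CPM in the same groups. The Hox cluster miRNAs, at 57463 to 106797 CPM in knockout and 88989 to 144341 CPM in transgene libraries, were below the control range of 156810 to 175624 CPM. The erythroid, tubule and Hox sums separated the knockout from the controls, as did the miR-483 arm balance, and their part in that result was not tested. The erythroid sum is mostly miR-451a, which alone of the 3 was higher without overlap, while miR-144-3p and miR-486a-5p overlapped. Of the tubule list 4 of 5, and of the Hox list 3 of 4, were lower without overlap. Over all miRNAs 28.5% did not overlap in either direction. Tubule miR-200c-3p went the other way, with a log2 fold change of 0.20. The tubule and Hox sums also separated the transgene from the controls, where the arm balance overlapped. Singly, 3 of the 5 tubule and 2 of the 4 Hox miRNAs were lower without overlap there, where 24.0% of all miRNAs did not overlap in either direction.

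Other marker sums overlapped with the controls in the knockout. Endocrine and pancreatic miRNAs (3 of 4 listed were tested) summed to 1662 to 17509 CPM in knockout, 6780 to 11644 CPM in transgene and 1465 to 2458 CPM in control libraries. The 4 leukocyte miRNAs summed to 479 to 1379, 467 to 1213 and 374 to 732 CPM, the 2 neural miRNAs to 1583 to 1809, 1650 to 3033 and 1740 to 2988 CPM, and the endothelial miR-126a arms to 34553 to 48793, 36660 to 45595 and 45278 to 56513 CPM in knockout, transgene and control libraries. The arms of gonadal miR-202 summed to 1.4 to 87.9, 1.0 to 1408 and 3.0 to 603 CPM in the same groups, and its 3p arm was the single tested marker with 0 reads in a library.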

How the data were processed

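Small RNA was sequenced from 9 libraries of embryonic day 16.5 kidney, grouped by their titles and genotypes. Per the labels' protocols, RNA was extracted with Trizol and libraries followed the BGI protocol. Per the submitters' processing notes, mm10, CASAVA 1.8 and Bowtie2 were used, in roles that are not stated. How reads were assigned to names is not stated either. The authors deposited raw counts of reads per small RNA name, 31743004 to 42609889 per library, and a TPM column that is the count per 1000000 of that total. Deposited TPM values entered no test.

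Known miRNAs (mature plus hairpin rows of 1 name; the members have mature rows only) entered edgeR 4.0.16 (R 4.3.3): TMM factors of 0.882 to 1.13, filterByExpr, 1 fit over all 9 libraries with group as the factor, the quasi-likelihood F test and Benjamini-Hochberg adjustment over 955 miRNAs. SE is the log2 fold change over the square root of F. Balances used log2 of counts plus 1 and exact two-sided permutation tests (scipy 1.17.1). Arm ratios of 289 hairpins were fitted, after the data were seen, with limma 3.58.1 with a trend on the reads of the rarer arm. DESeq2 1.42.0 was an alternative. The edgeR and limma steps were run on simulated data. The planted changes there were larger than the folds and arm shifts of the members, so recovery of changes as small as these was not tested. Likeness used log2 CPM with a prior count of 2. Named miRNAs were the members, the 3 most alike to each with at least 10 CPM, and up to 3 of the most abundant of each list. Members and lists were chosen with earlier results of these data known.

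Titles share replicate numbers, but same-numbered libraries did not deviate together (r -0.30 to 0.10), so the numbers were not used as pairs.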

Additional observations from a re-analysis of the deposited data

How the results depend on the processing

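Of 285 recomputed values for 21 results, 262 kept their direction and 23 changed it. None of the 204 values of fold changes and of the 6 from limma had an adjusted p under 0.05. The other 75, balances with exact permutation tests, could not pass 0.05 with at most 3 libraries a group, so their p-values say nothing about stability. The miR-483 arm balance and the knockout folds of both miR-483 arms and of miR-675-5p against control kept their direction in every alternative tried. For the arm balances, the replicate block and limma return the same difference of group means by construction. The smaller pseudocount hardly alters it at these counts. Their kept directions are among the 262 and say nothing about stability. Only leaving out libraries could test the direction of an arm balance, and only where the groups overlapped. For miR-483 the knockout libraries did not overlap with the transgene or control libraries, so leaving out 1 library could not turn that direction. Scaling to total miRNA counts, which moved the median of all miRNAs to 0.18 for transgene and 0.19 for knockout over control, turned the transgene fold of miR-483-5p to 0.095 and the knockout over transgene fold of miR-675-5p to -0.019. With all counted reads, where the transgene median was 0.12, these were 0.034 and -0.057, and miR-675-3p, knockout over transgene, was -0.014. With 1 library left out, the folds ran from -0.024 to 0.44 for miR-483-3p in the transgene, from -0.11 to 0.22 in the transgene, from -0.068 to 0.26 in the knockout and from -0.031 to 0.12 for knockout over transgene for miR-675-3p, and from -0.10 to 0.18 for miR-675-5p, knockout over transgene. For knockout over transgene they ran from 0.28 to 0.98 for miR-483-3p and from -1.25 to -0.13 for miR-483-5p. The miR-675 arm balance then ran from -0.0023 to 0.38 for knockout minus control and from -0.19 to 0.19 for knockout minus transgene. The miR-675 over miR-483 balance ran from -0.060 to 0.41 for transgene minus control, from -0.11 to 0.94 for knockout minus control and from -0.29 to 0.75 for knockout minus transgene. The cause of these changes was not tested beyond the library left out. With the replicate block, fitted although the libraries share only a number, the knockout folds of miR-483-5p and miR-483-3p were -0.87 and 0.77, no member was called, and the calls for knockout over transgene went to 0 where 1 was made without it. Over all miRNAs edgeR called 48 for knockout over control without knockout 1 and 0 with all libraries, and DESeq2 called 104 of 884, with 4 of 662 for transgene over control and 3 of 939 for knockout over transgene. With 3 libraries a group, the intervals of the miR-483 folds span more than 2 log2 units, while counting error at this depth is within 4.70%.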
